A study of Mus musculus with 2 samples.

Results

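The 8 genes described here mark the hepatocytes that ring the central vein of the liver lobule. They are Glul (ENSMUSG00000026473), Oat (ENSMUSG00000030934), Slc1a2 (ENSMUSG00000005089), Rhbg (ENSMUSG00000104445), Lgr5 (ENSMUSG00000020140), Axin2 (ENSMUSG00000000142), Tbx3 (ENSMUSG00000018604) and Lect2 (ENSMUSG00000021539). They were chosen by name as a set of pericentral glutamine, ornithine and Wnt pathway genes, and all 8 were found by Ensembl identifier among the 30406 genes that both files list. The study used droplets to capture RNA from dissociated mouse liver (10x Genomics) and made 2 libraries. The first came from uninjured, healthy animals and the second from animals given CCl4 (carbon tetrachloride), a toxin that cytochrome P450 enzymes of pericentral hepatocytes activate. All mice carried the Col1a2CreER:Rosa26tdTomato alleles, in which a tamoxifen-inducible Cre driven by the promoter of the collagen gene Col1a2 switches on a red reporter, so the hepatocytes were not chosen by a reporter of their own. Both libraries are labelled as whole liver cells, although the methods describe magnetic beads that removed CD45-positive leukocytes. The study describes the injury as chronic, with CCl4 given over weeks, in young adult mice of both sexes, and the number of mice behind each library is not given in the sources used here. With 1 library per condition no difference between the libraries has a replicate check. Intervals are 95% intervals that cover counting error only, so that everything that separates the 2 libraries, from the animals to the droplet run, cannot be told apart from CCl4 injury.

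Glutamine synthetase, the product of Glul, joins ammonia to glutamate in a thin layer of hepatocytes next to the central vein and so takes up the ammonia that the urea cycle upstream has left. Oat (ornithine aminotransferase) turns ornithine into a precursor of glutamate in mitochondria, Slc1a2 carries glutamate into the cell and Rhbg carries ammonium. The layer is kept by Wnt ligands and R-spondins from the endothelium of the central vein, which act through beta-catenin. Lgr5 is a receptor for R-spondins, Axin2 a feedback inhibitor and common readout of the pathway, Tbx3 a transcription factor and Lect2 a secreted protein of hepatocytes, all of them known targets of beta-catenin in liver.

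RefSeq start sites with promoter sequence were at hand for 5 of the 8 genes (Glul, Oat, Slc1a2, Axin2 and Lect2). The 250 bases before the start site are shown for the 3 genes with the most UMIs in hepatocytes, on which the results turn, 5′ to 3′ on the strand of the gene and in the build GRCm38.p6, with the core letters of the TCF/LEF motif (CTTTGA or its reverse complement TCAAAG) in capitals. Glul is shown at chr1:153899679-153899928 (plus strand), Oat at chr7:132576399-132576648 (minus strand) and Lect2 at chr13:56548539-56548788 (minus strand).
Glul: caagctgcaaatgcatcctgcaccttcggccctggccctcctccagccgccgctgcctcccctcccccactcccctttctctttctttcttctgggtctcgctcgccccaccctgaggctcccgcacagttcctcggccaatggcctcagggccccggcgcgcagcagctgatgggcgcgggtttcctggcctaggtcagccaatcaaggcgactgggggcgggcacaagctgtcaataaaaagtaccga
Oat: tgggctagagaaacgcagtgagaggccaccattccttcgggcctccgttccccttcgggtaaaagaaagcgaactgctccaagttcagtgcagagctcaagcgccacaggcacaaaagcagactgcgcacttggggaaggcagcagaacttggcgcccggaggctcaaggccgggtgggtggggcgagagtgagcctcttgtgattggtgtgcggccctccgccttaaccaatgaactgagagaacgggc
Lect2: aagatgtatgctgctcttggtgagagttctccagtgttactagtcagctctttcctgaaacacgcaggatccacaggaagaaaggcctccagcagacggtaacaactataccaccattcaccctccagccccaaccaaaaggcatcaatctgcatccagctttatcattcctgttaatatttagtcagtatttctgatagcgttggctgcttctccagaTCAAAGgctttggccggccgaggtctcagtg
The letters occur once in the Lect2 window, 31 bases before the start site, and in neither the Glul nor the Oat window. They also occur at 2 places of the Slc1a2 window and nowhere in that of Axin2. Of all 32851 RefSeq promoter windows of this length, 13.8% hold them, so a match here describes the sequence and no binding was measured.

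Values are UMIs (unique molecular identifiers, each standing for 1 captured RNA molecule) summed over cells and given as CPM, counts per 1000000 of all UMIs of those cells. The libraries count the 3′ ends of transcripts, so CPM of different genes were not divided by length. After filtering, the healthy library kept 5602 cells at a median depth of 6783.5 UMIs and the CCl4 library 7314 at 11876 UMIs, and 10 barcodes occurred in both libraries. Hepatic cells were defined as cells with at least 5 UMIs of Apoa1, Ttr, Fgb, Ahsg and Hpx together, genes of proteins that hepatocytes secrete into the blood. This rule took 2148 healthy cells (38.3% of those kept) and 249 CCl4 cells (3.40%), with median depths of 9849.5 and 1790 UMIs. Just inside the limit, with 5 or 6 of these UMIs, were 481 healthy and 59 CCl4 cells, and just below it, with 3 or 4, were 1283 and 166.

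The cells taken by the rule were not mainly hepatocytes in the healthy library. Of its 2148 cells, 1229 (57.2%) lay in the cluster named cholangiocyte-like from its markers, which is 98.2% of that cluster's healthy cells, 478 (22.3%) were endothelial-like, and 311 (14.5%) lay in the 3 clusters whose markers were mostly those of hepatocytes. From the CCl4 library 191 of 249 cells (76.7%) lay in those 3 clusters. Summed over 10 cholangiocyte markers, the level was 24706 CPM in the healthy and 5982 CPM in the CCl4 cells taken by the rule, and 536 and 304 CPM in those of the 3 hepatocyte-marker clusters. The summed level of 12 hepatocyte markers in the hepatocyte-marker clusters was 64084 CPM healthy and 25986 CPM CCl4, with all 12 detected in both. Other cells' markers were not absent there: the summed level of 12 mesenchymal markers was 9.82 CPM healthy (6 of 12 detected) and 1652 CPM CCl4 (12 of 12), and that of 12 endothelial markers 295 and 62.8 CPM.

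Different clusters held the hepatocytes of the 2 libraries. Cluster c3, the only one that met the conditions for the name hepatocyte-like, comprised 48 healthy cells and none from the CCl4 library, at a median depth of 42576.5 UMIs and a median mitochondrial share of 19.0%. Cluster c4 (272 healthy and 106 CCl4 cells, led by Gnmt, Bhmt, Arg1 and Fabp1) and cluster c20 (6 healthy and 223 CCl4 cells, led by Gm3776, Gsta1 and Apoc2) stayed unnamed because their median depths, 2208 and 701 UMIs, were low for their libraries and no hepatocyte marker was among their 10 leading genes. Cluster c4 was the only one of the 3 with at least 30 cells in each library, and it depended on the clustering: with 30 principal components no hepatocyte-marker cluster held 30 cells of each library, since 325 healthy and 0 CCl4 cells fell in 1 cluster and 2 healthy and 330 CCl4 cells in another. Results below are therefore given for all cells taken by the rule, for those of the hepatocyte-marker clusters and, for some of them, for cluster c4 alone. The gene lists were not compared within cluster c4.

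Glul was lower in the CCl4 library in each of these 3 sets, which overlap in their cells. Over all cells of the rule it had 3285 UMIs in the healthy and 54 in the CCl4 library, which is 133 CPM [129, 138] against 46.7 CPM [35.1, 60.9] and a ratio of 0.351 [0.263, 0.459]. Most of these UMIs, 2944 healthy and 36 CCl4, lay outside the hepatocyte-marker clusters. There Glul stood at 134 and 46.5 CPM, a ratio of 0.346 [0.242, 0.480], so the first ratio is mainly one of other cells. In the hepatocyte-marker clusters it had 341 and 18 UMIs, or 124 against 47.1 CPM, with a ratio of 0.380 [0.223, 0.610]. In cluster c4 the levels were 244 CPM [213, 279] and 39.7 CPM [20.5, 69.3], and the ratio was 0.162 [0.0827, 0.290]. The difference was not seen among the cells that took at least 1% of their UMIs from the 5 rule genes (176 healthy and 93 CCl4 cells), where Glul stood at 66.9 and 70.8 CPM and the ratio was 1.06 [0.535, 1.90]. Glul also stood lower in the mesothelial-like cells of the CCl4 library, at 33.4 against 97.5 CPM, a ratio of 0.343 [0.300, 0.392]. The healthy level of Glul in cluster c4 lay in few cells. The 10 cells with the most held 154 of its 219 Glul UMIs, and the intervals do not cover such spread between cells. In cluster c3, which had no CCl4 cell to compare, Glul stood at 65.5 CPM [54.4, 78.2].

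The direction for Oat depended on which cells were called hepatic. Over all cells of the rule Oat was higher in the CCl4 library, with 1392 UMIs (56.4 CPM) healthy and 139 UMIs (120 CPM) CCl4 and a ratio of 2.13 [1.78, 2.54]. In the hepatocyte-marker clusters it was lower, with 857 UMIs (312 CPM) healthy and 14 UMIs (36.6 CPM) CCl4 and a ratio of 0.118 [0.0640, 0.198]. In cluster c4 it fell from 432 CPM [390, 477] to 39.7 CPM [20.5, 69.3], a ratio of 0.0919 [0.0471, 0.162]. In the cells of the rule outside the hepatocyte-marker clusters Oat stood at 24.4 CPM in the healthy and 161 CPM in the CCl4 library. Summed levels of 12 mesenchymal markers moved with this, at 337 CPM healthy and 15243 CPM CCl4 in the same cells, and their part in the Oat result was not tested.

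Lect2 went the other way from Glul. It had 449 UMIs (18.2 CPM) in the healthy and 127 UMIs (110 CPM) in the CCl4 cells of the rule, a ratio of 6.03 [4.92, 7.36]. In the hepatocyte-marker clusters the levels were 150 and 311 CPM, a ratio of 2.07 [1.67, 2.54], and over all 326 healthy and 329 CCl4 cells of these clusters, whether taken by the rule or not, 150 and 247 CPM, a ratio of 1.65 [1.34, 2.02] that is under 2-fold. In cluster c4 Lect2 stood at 60.2 CPM [45.3, 78.6] healthy and 284 CPM [227, 351] CCl4, a ratio of 4.72 [3.32, 6.76]. Within cluster c4 Glul and Oat were thus lower, and Lect2 higher, in the CCl4 cells. Alb (albumin), an abundant product of most hepatocytes, stood at 30692 CPM in the healthy and 4778 CPM in the CCl4 cells of the hepatocyte-marker clusters, so that the make-up of hepatocyte RNA differed beyond these genes. Within cluster c4 Alb stood at 14434 CPM healthy and 5870 CPM CCl4.

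The remaining 5 genes were too sparse in hepatocytes for most comparisons. In the hepatocyte-marker clusters Tbx3 had 53 UMIs healthy and 5 CCl4 (19.3 and 13.1 CPM), a ratio of 0.679 [0.212, 1.69]. Rhbg had 18 and 1 UMIs, a ratio of 0.400 [0.00960, 2.53]. Slc1a2 (22 UMIs), Axin2 (15 UMIs) and Lgr5 (10 UMIs) had 0 UMIs in the CCl4 cells, where 3 UMIs would be 7.85 CPM, so that healthy levels such as the 5.45 CPM of Axin2 and 3.64 CPM of Lgr5 would have been under what the CCl4 cells could show. Over all cells of the rule Axin2 was higher in the CCl4 library (42 and 7 UMIs, a ratio of 3.56 [1.35, 7.99]), and each of these 7 UMIs lay in a cell outside the hepatocyte-marker clusters. A loss of Slc1a2, Rhbg, Lgr5 or Axin2 in hepatocytes was not detectable at this depth.

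**Figure D1:**
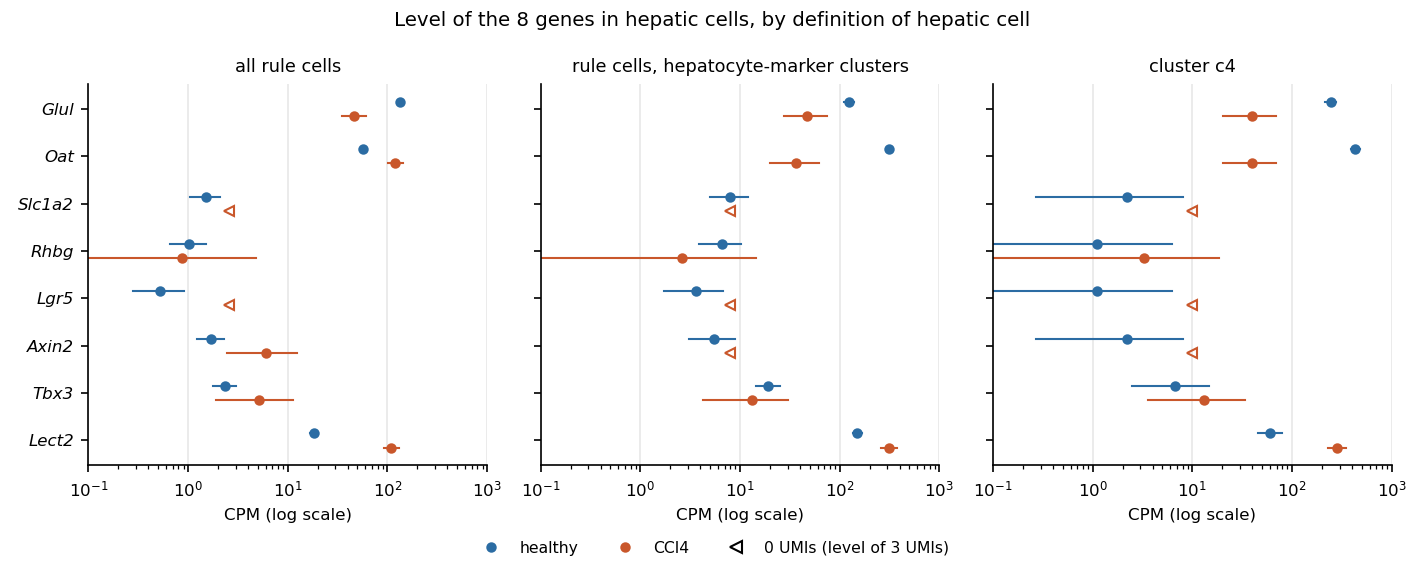
Level of the 8 genes (CPM, log axis) in the healthy (blue) and CCl4 (orange) library for all cells of the rule, for those in hepatocyte-marker clusters and for cluster c4. Points are levels, lines 95% Poisson intervals and open triangles the level of 3 UMIs where none was counted. Oat lies at 56.4 CPM healthy and 120 CPM CCl4 in the left panel and at 432 and 39.7 CPM in the right panel, while Lect2 is higher in the CCl4 library in all 3.

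A gene was called different when its ratio was at least 2-fold and its interval left out 1, among genes with at least 10 UMIs in both libraries together. A gene with no UMI in a library was called from its interval. Over all cells of the rule 21.3% of genes tested were called lower and 8.71% higher in the CCl4 library, and of the 8 genes 1 (Glul) was called lower and 3 (Oat, Axin2 and Lect2) higher. Under TMM scaling (edgeR) in place of CPM the calls over all genes were 1941 lower and 1720 higher rather than 3138 and 1286. In the hepatocyte-marker clusters 12.9% were called lower and 11.1% higher, and of the 8 genes 2 (Glul and Oat) were called lower and 1 (Lect2) higher. All 8 genes reached 10 UMIs in both sets.

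The share of cells with a UMI was compared after each cell was thinned to 500 UMIs, since depth differed between the libraries. In the hepatocyte-marker clusters an expected 9.99% [6.89, 13.9] of 311 healthy and 1.77% [0.416, 4.82] of 191 CCl4 cells then had an Oat UMI. For Glul the shares were 6.39% [3.94, 9.71] and 2.27% [0.663, 5.52], whose intervals overlapped. For Lect2 they were 3.32% [1.63, 5.97] and 10.3% [6.41, 15.6], which did not overlap. Without thinning, Glul was found in 25.1% of the healthy and 8.90% of the CCl4 cells, at median depths of 2972 and 1291 UMIs.

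In the healthy library Glul, Oat and Lect2 were each concentrated in few cells of the hepatocyte-marker clusters. Of the 326 healthy cells in the hepatocyte-marker clusters 78 held the 341 Glul UMIs, the cell with the most had 49, and the 10 cells with the most held 171 (50.1%). The 861 Oat UMIs lay in 77 cells, with up to 99 in 1 cell and 471 (54.7%) in the top 10. The 414 Lect2 UMIs lay in 62 cells, with 224 (54.1%) in the top 10. In the 329 CCl4 cells 21 Glul UMIs lay in 20 cells and 20 Oat UMIs in 17 cells, and no cell had more than 2 of either. At 500 UMIs per cell, 9.83 healthy and 0.0278 CCl4 cells would be expected to show 2 or more Glul UMIs, and 17.0 and 0.0694 cells 2 or more Oat UMIs. Lect2 had the opposite order, with 0.732 healthy and 3.49 CCl4 cells expected to show 2 or more.

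The cells richest in Glul differed between clusters c3 and c4. Among the 10 healthy cells with the most Glul UMIs, 7 belonged to cluster c4, had 1694 to 5840 UMIs in all and carried 5.93 to 8.39 Glul UMIs and 4.17 to 14.6 Oat UMIs per 1000. The 3 from cluster c3 had 36282 to 53084 UMIs in all and only 0.233 to 0.331 Glul UMIs and 0.466 to 1.87 Oat UMIs per 1000. Mitochondrial UMIs made up 0.137% to 5.80% of the former and 16.3% to 21.6% of the latter. The 7 cells of cluster c4 had only 2 to 14 Alb UMIs each, and the 3 of cluster c3 had 629 to 859. Over all its healthy cells cluster c4 stood at 14434 CPM of Alb. The depth and the mitochondrial share moved with the Glul level per UMI, and their part in it was not tested.

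Glul and Oat were found in the same cells. In the healthy hepatocyte-marker clusters 46 cells had UMIs of both genes, 32 of Glul only, 31 of Oat only and 217 of neither, so that 59.0% of cells with Glul and 12.5% of cells without it had Oat. As a description over these 326 cells, which share 1 library and differ in depth, Pearson's r of the log-scaled levels was 0.649, and it was 0.805 over the 48 cells of cluster c3 and 0.661 over the 272 of cluster c4. In the CCl4 library 2 of 329 cells had both genes. The cell with the most Glul (49 UMIs among 5840) had 68 Oat UMIs, and the cell with the most Oat (99 among 53084) had 13 Glul UMIs.

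**Figure D2:**
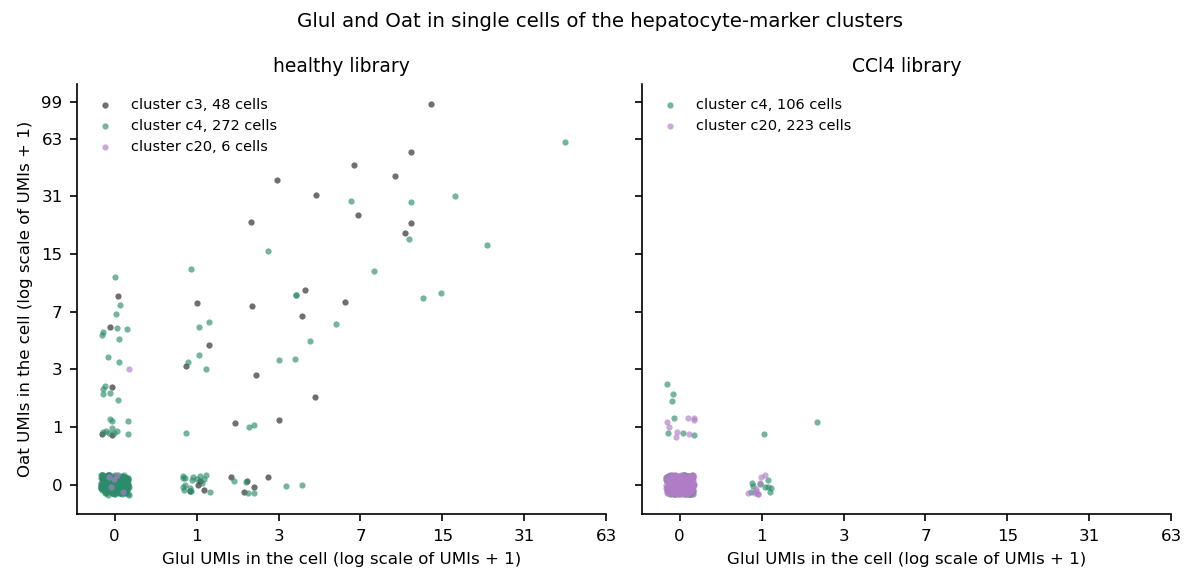
Glul against Oat UMIs in each cell of the hepatocyte-marker clusters (both axes on a log scale of UMIs + 1, with small random shifts so that points with equal counts can be seen), healthy library left and CCl4 library right, coloured by cluster. In the healthy library 46 cells have both genes, with up to 49 Glul and 99 Oat UMIs, while no CCl4 cell has more than 2 of either.

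The other members also lay in the cells with Glul. In the healthy hepatocyte-marker cells of the rule, the 78 cells with a Glul UMI were deeper (median 7060.5 UMIs against 2570) and held 55.6% of all UMIs, but all 22 Slc1a2, all 18 Rhbg and all 10 Lgr5 UMIs. They also held 14 of the 15 Axin2, 45 of the 53 Tbx3 and 346 of the 414 Lect2 UMIs. Levels there were 6.33-fold those of the other cells for Oat [5.11, 7.91], 4.49-fold for Tbx3 [2.10, 11.0] and 4.06-fold for Lect2 [3.12, 5.35], and taking 3 UMIs as the floor in the other cells they were at least 5.85-fold for Slc1a2, 4.79-fold for Rhbg and 2.66-fold for Lgr5. These values pool clusters that differ in depth, and cluster c3 held 20 of the Slc1a2, 17 of the Rhbg and 9 of the Lgr5 UMIs. Within cluster c3 the 30 cells with Glul held 70.2% of all UMIs. There the bounds were 2.83-fold for Slc1a2, 2.41-fold for Rhbg and 1.27-fold for Lgr5, and Tbx3 stood at 4.57-fold. Of the 22 Slc1a2 UMIs 18 came from a single cell of cluster c3, which also had 12 Glul, 52 Oat and 5 Rhbg UMIs among 36282.

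Most zonal genes compared outside the set, some of them chosen after their values were seen, differed with Glul in the healthy cells by the zone they mark. Cyp2e1 and Cyp1a2, pericentral cytochrome P450 genes, were 5.42-fold [4.98, 5.92] and 4.54-fold [3.77, 5.51] higher in cells with Glul than in those without. Cyp2f2 and Sds, which mark the opposite, periportal side, stood at 0.599 [0.545, 0.659] and 0.278 [0.236, 0.327] of the level without Glul. The periportal urea cycle gene Cps1 went the other way over these cells, at 1.23 [1.14, 1.33], but stood at 0.748 [0.690, 0.811] within cluster c3 and 0.611 [0.401, 0.903] within cluster c4. Alb differed less, at 0.863 [0.852, 0.875]. Within cluster c3 alone, where all cells are deep, the ratios were 10.7 [6.69, 18.2] for Oat, 3.60 [2.57, 5.18] for Lect2, 3.36 for Cyp2e1 and 0.449 for Cyp2f2. The cells richest in Glul differed by cluster in these P450 genes. Among the 10 healthy cells with the most Glul UMIs, the 7 of cluster c4 had 0 to 2 Cyp2e1 and 0 to 1 Cyp1a2 UMIs among 1694 to 5840. The 3 of cluster c3 had 210 to 366 Cyp2e1 and 41 to 54 Cyp1a2 UMIs among 36282 to 53084.

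In the CCl4 library the hepatocyte-marker cells with a Glul UMI had more Lect2 and Cyp1a2, and Oat was too sparse to compare. The 17 such cells of the rule (18 Glul UMIs, median depth 2997 UMIs against 1270.5) had 849 CPM of Lect2 against 214 CPM in the 174 without, a ratio of 3.98 [2.71, 5.80], and the ratio of Cyp1a2 was 5.17 [3.43, 7.79]. Oat had 2 and 12 UMIs, a ratio of 0.914 [0.0994, 4.11] whose interval takes in the Lect2 ratio. In cluster c20 as a whole, where 9 cells held Glul, Lect2 had 1 UMI in these cells and 35 in the others, a ratio of 0.430 [0.0106, 2.56]. Few cells carried this: of the 11 cells with Glul in cluster c4, 3 held 44 of the 49 Lect2 UMIs and 32 of the 44 Cyp1a2 UMIs, and each of these 3 had a single Glul UMI and no Oat UMI.

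The genes most like Glul across cells were Cyp2a5 (Pearson's r 0.815), Oat (0.805), Mup9 (0.763), Elovl3 (0.750) and Ugt2b1 (0.714), over 48 cells of cluster c3 and 9013 genes with a UMI in at least 10% of them. Among the other members Lect2 ranked 17 (0.635), Tbx3 24 (0.610), Lgr5 29 (0.579), Rhbg 33 (0.576) and Axin2 127 (0.462) in the same order. Over the 263 healthy rule cells of clusters c4 and c20 (3052 genes) Oat came first (0.666), followed by Gstm6 (0.349), Rgn (0.329), Gulo (0.315) and Cela1 (0.300). Oat was thus among the 2 nearest genes in both sets, which share 1 library.

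Most Glul and Oat RNA in these libraries lay outside hepatocytes. Of all Glul UMIs, 3.89% (healthy) and 0.409% (CCl4) came from the hepatocyte-marker clusters, and of all Oat UMIs 20.9% and 0.107%. In bulk measurements of such a suspension, fewer hepatocytes and less RNA per hepatocyte could not be told apart. The level of each gene was therefore compared across the cell classes of at least 30 cells.

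Glul was highest in endothelial cells. Endothelial-like cells of the healthy library stood at 293 CPM [286, 301] and held 67.1% of its Glul UMIs, 2.38-fold [2.13, 2.66] the level of the hepatocyte-marker clusters. Among CCl4 cells the unnamed cluster with endothelial markers (c2, led by Rpl39l and hemoglobin genes) stood at 275 CPM [260, 292]. Macrophage and monocyte-like cells of that library had 151 CPM [129, 177] and mesenchymal-like cells 59.3 CPM [57.1, 61.6]. Cholangiocyte-like cells had 112 CPM [107, 117] in the healthy library, a ratio of 0.905 [0.806, 1.02] to the hepatocyte-marker clusters that does not leave out 1.

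Endothelial RNA was also present in the hepatocyte clusters, and its part in their Glul was not tested. Endothelial-like cells held 0.0716 Glul UMIs per UMI of Clec4g, a gene of liver sinusoidal endothelium, while healthy cells of cluster c4 held 1.54 [1.24, 1.92] and cells of cluster c3 4.21 [2.79, 6.54]. Clec4g itself was 3.50-fold [2.48, 4.94] and the endothelial receptor gene Kdr 4.19-fold [2.53, 7.002] higher in the cells of cluster c4 with Glul than in those without. The 48 healthy cells of cluster c4 with Glul held 2.88 [2.21, 3.79] Glul UMIs per Clec4g UMI. The 15 of them with 4 or more Glul UMIs held 14.5 [8.09, 28.6]. Those 15 cells had 174 of the 219 Glul UMIs and 12 of the 76 Clec4g UMIs. The 7 cells of cluster c4 among the 10 healthy cells with the most Glul UMIs had 0 UMIs of Clec4g and of Kdr.

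Oat was highest in mesothelial-like cells, which line the liver surface. They stood at 476 CPM [454, 498] in the healthy library, with 44.5% of its Oat UMIs and 1.53-fold [1.41, 1.66] the level of the hepatocyte-marker clusters, and at 325 CPM [317, 334] in the CCl4 library. Mesenchymal-like cells of the CCl4 library, the class of stellate cells and fibroblasts, had 207 CPM [203, 211] and 50.9% of its Oat UMIs. Cholangiocyte-like cells had 7.62 CPM [6.39, 9.01], the lowest level of any class with at least 30 cells. Among the named classes the order in the healthy library was mesothelial-like, hepatocyte-marker (312 CPM), endothelial-like (59.8 CPM) and cholangiocyte-like cells, with no overlap between the intervals of these 4. This held for the pooled hepatocyte-marker clusters only. Healthy cells of cluster c4 stood at 432 CPM [390, 477], which overlaps the interval of the mesothelial-like cells, and those of cluster c3 at 253 CPM [230, 277].

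In the CCl4 library Glul and Oat of hepatocytes lay within counting error of 3 immune classes. The hepatocyte-marker clusters had 42.6 CPM [26.3, 65.05] of Glul, and neutrophil-like, B and plasma cell-like, and T and NK cell-like cells had 42.1, 31.3 and 27.8 CPM, with ratios to the hepatocyte-marker clusters whose intervals all held 1. For Oat the hepatocyte-marker clusters had 40.5 CPM [24.8, 62.6] and the same 3 classes 36.1, 41.1 and 55.5 CPM, again with intervals that held 1. A Glul UMI was found in 6.08% of these hepatocytes at a median of 898 UMIs and in 12.5% of T and NK cell-like cells at a median of 4122.5. The other unnamed clusters of that library stood lower for Glul, at 25.5 CPM, a ratio of 0.600 [0.388, 0.979], and higher for Oat, at 196 CPM. Macrophage and monocyte-like cells stood 3.56-fold [2.25, 5.91] higher for Glul, and their Oat interval held 1. Mesenchymal-like and mesothelial-like cells also had Glul intervals that held 1, but stood 5.11-fold and 8.03-fold higher for Oat. Cluster c20, with 223 of the 329 CCl4 hepatocyte-marker cells, was enriched for 5 hepatocyte markers, and Alb was not among them. From these 3 immune classes the Glul and Oat levels of the CCl4 hepatocytes could not be told apart at this depth.

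Lect2 lay mainly in hepatocytes in both libraries, and Tbx3 in the healthy one. The hepatocyte-marker clusters held 80.3% of the Tbx3 and 81.8% of the Lect2 UMIs of the healthy library, and 75.8% of the Lect2 UMIs of the CCl4 library. Lect2 stood at 150 CPM there in the healthy library and at 2.99 CPM in endothelial-like and 1.46 CPM in cholangiocyte-like cells, ratios of 0.0200 [0.0150, 0.0262] and 0.00972 [0.00627, 0.0144]. Per 1000 Alb UMIs, Lect2 had 4.67 UMIs in endothelial-like cells and 4.88 in hepatocytes, whereas Glul had 458 and 4.02. With CCl4, Lect2 stood at 247 CPM in hepatocytes and at 0.350 CPM in mesenchymal-like cells. Of the CCl4 library's Tbx3, only 7.46% of 67 UMIs lay in hepatocytes, and mesenchymal-like cells held 40.3% at a level of 0.590 CPM.

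Axin2 had its main sources outside hepatocytes. In the CCl4 library mesenchymal-like cells held 54.1% of its UMIs at 12.7 CPM [11.7, 13.8], and mesothelial-like cells stood at 14.2 CPM [12.4, 16.1], 2.87-fold [1.80, 4.85] the 4.94 CPM of the healthy mesothelial-like cells. In the healthy library Axin2 was highest in cluster c2, the unnamed cluster with endothelial markers, at 24.0 CPM [13.4, 39.5] (15 UMIs). This was 4.42-fold [2.01, 9.70] the hepatocyte level. The name may not describe these 45 healthy cells, which held 625611 UMIs at a median of 2005. With more principal components, 15 healthy and 0 CCl4 cells at a median of 31243 UMIs formed a separate cluster. It was led by Rpl39l, Sox2 and Tubb3, also leading genes of c2, and had no enriched marker of any class. How much Axin2 came from such cells was not tested. Endothelial-like cells held 35.1% of the healthy Axin2 UMIs at 1.65 CPM. Healthy hepatocytes had 5.43 CPM [3.04, 8.95], within counting error of the healthy mesothelial-like cells (a ratio of 0.910 [0.438, 1.92]). Slc1a2 was found at 7.96 CPM in healthy hepatocytes, 4.16 and 6.37 CPM in healthy and CCl4 mesothelial-like cells and 10.6 CPM [5.30, 19.0] in macrophage and monocyte-like cells. Rhbg and Lgr5 had 62.1% and 76.9% of their healthy UMIs (18 and 10) in hepatocytes. Among CCl4 cells no Lgr5 UMI lay in the hepatocyte-marker clusters, and 24 of its 52 UMIs lay in cluster c22, which stayed unnamed and was led by Serpinb2, Enpp2 and Fndc1.

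**Figure D3:**
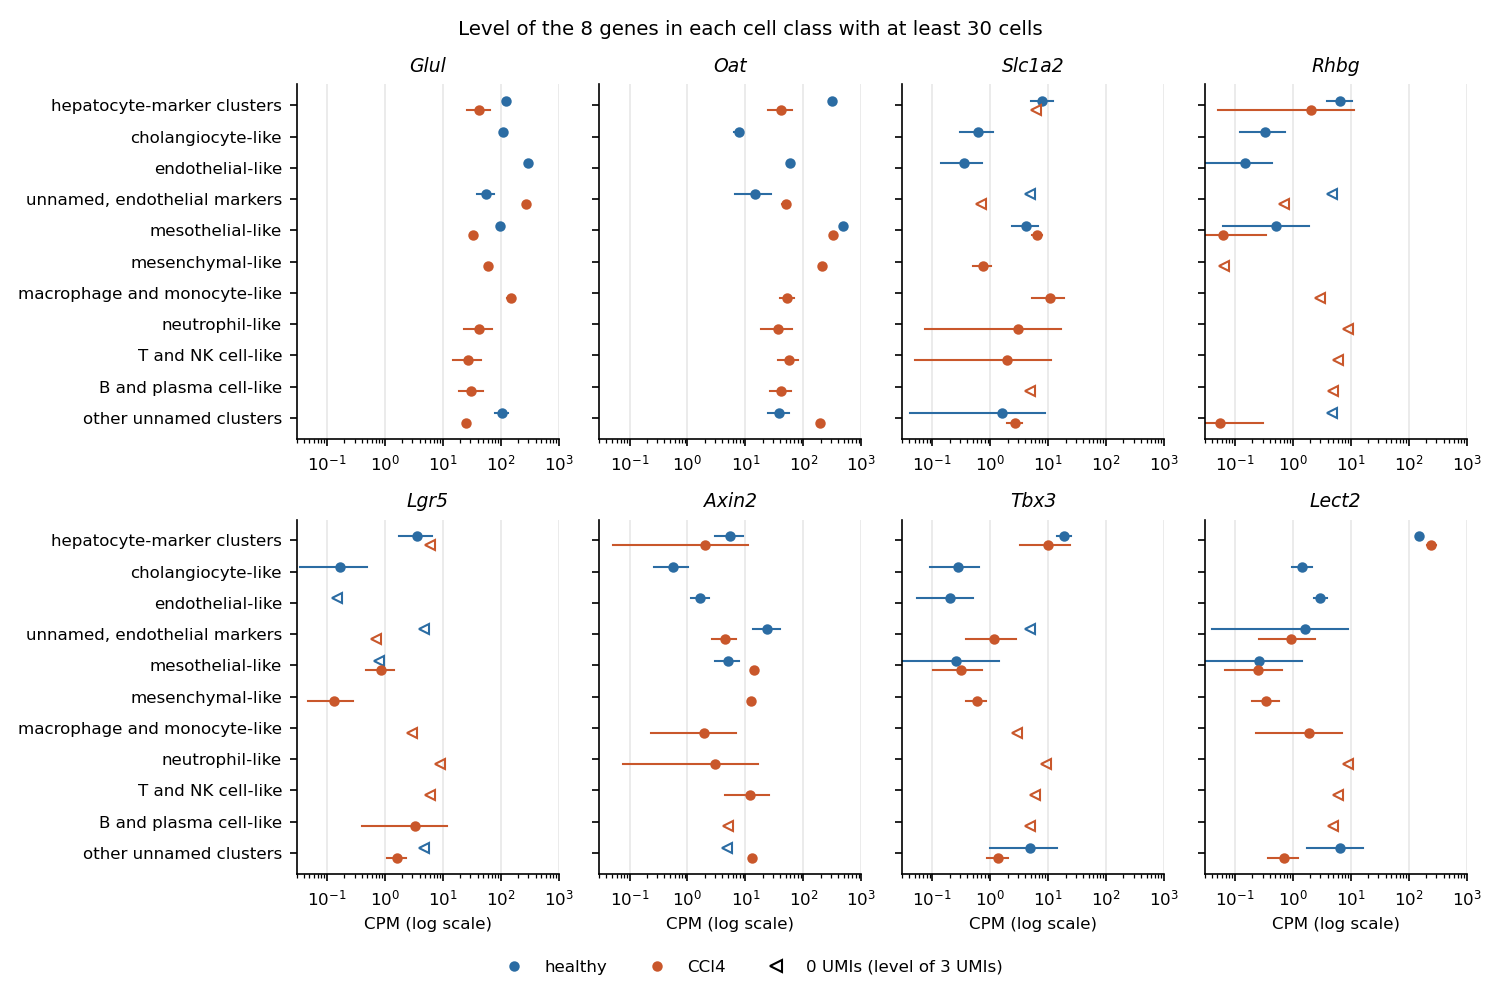
Level of each of the 8 genes (CPM, log axis) in every cell class with at least 30 cells in a library, healthy in blue and CCl4 in orange, with 95% Poisson intervals and open triangles at the level of 3 UMIs where none was counted. Glul peaks in endothelial-like cells (293 CPM healthy) and Oat in mesothelial-like cells (476 CPM healthy), while Tbx3 and Lect2 stand highest in the hepatocyte-marker clusters.

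Within healthy hepatocytes the levels fell in the order Oat (312 CPM [291, 333]), Lect2 (150 CPM [136, 165]), Glul (123 CPM [111, 137]), Tbx3 (19.2 CPM [14.4, 25.1]), Slc1a2 (7.96 CPM), Rhbg (6.51 CPM), Axin2 (5.43 CPM) and Lgr5 (3.62 CPM). Lect2 and Glul overlapped in their intervals, as did the last 4 genes. This overlap held for the pooled clusters only. In cluster c3 Lect2 stood higher, at 193 CPM [174, 214] against 65.5 CPM [54.4, 78.2] of Glul. In healthy cells of cluster c4 Glul stood higher, at 244 CPM [213, 279] against 60.2 CPM [45.3, 78.6] of Lect2. In CCl4 hepatocytes Lect2 led (247 CPM [205, 295]), followed by Glul and Oat, which overlapped, and Tbx3 at 10.1 CPM [3.29, 23.6].

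The wider glutamine, ornithine and urea cycle genes were lower for the most part in the CCl4 cells of the pooled hepatocyte-marker clusters. Of 24 such genes with at least 10 UMIs in the hepatocyte-marker cells of the rule, 11 were called lower and 1 higher. Of all 9341 genes 12.9% were called lower and 11.1% higher. The median log2 ratio of the 24 genes was −0.93 (a gene under 3 UMIs in a library set to 3) against 0.20 over all genes. The largest falls among the 24 were those of the glutamine and amino acid transporters Slc38a4 (317 to 18.3 CPM), Slc38a3 (162 to 13.1 CPM) and Slc38a2 (278 UMIs against 1), and of Cps1, the first enzyme of the urea cycle (1015 to 96.8 CPM, a ratio of 0.0955 [0.0671, 0.132]). Ass1 (a ratio of 0.791 [0.733, 0.853]) and Arg1 (1.45 [1.31, 1.597]), later enzymes of the same cycle, stayed within 2-fold. Over all cells of the rule 4 of 27 were lower and 5 higher, where 21.3% of all genes were called lower and 8.71% higher. The median was 0.19 against −0.28 over all genes. Among the hepatocyte-marker cells of the rule, cluster c3, which had no CCl4 cell, held 1863141 of the 2750882 healthy UMIs. How far cluster c3 shaped the list values was not tested.

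Pericentral genes outside the set were also lower more often than higher, and periportal genes more so. Of 23 other pericentral genes in the hepatocyte-marker cells 10 were called lower and 3 higher (median −0.74), against 12.9% and 11.1% of all 9341 genes. Cyp2e1, the enzyme that activates CCl4, stood at 1717 CPM healthy and 60.2 CPM CCl4, a ratio of 0.0351 [0.0222, 0.0527], and Cyp2c37 and Cyp8b1 had 3 UMIs each in the CCl4 cells (126 and 98.2 CPM healthy). Cyb5a (2.27-fold [2.16, 2.38]), Blvrb (2.15-fold [1.76, 2.61]) and the glutathione transferase gene Gstm3 (10.9 to 505 CPM) were higher. Of 18 periportal genes 13 were called lower and 0 higher (median −2.06), among them Cyp2f2 (651 to 10.5 CPM) and Pigr (652 to 44.5 CPM), with 1034 of all 9341 genes called higher by the same rule. The difference between the pericentral and the periportal list was not tested. These values also pool cluster c3, which is present on the healthy side only.

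Few Wnt pathway genes could be compared in hepatocytes. Of 11 tested Wnt and R-spondin ligands and receptors 2 were called lower and 0 higher, and 10 of the 11 had under 3 UMIs in a library. Over all 9341 genes in these cells 12.9% were called lower and 11.1% higher. Lgr4, a receptor for R-spondins, had 82 UMIs (29.8 CPM) healthy and 2 UMIs CCl4. The Wnt receptor gene Fzd4 had 36 and 0 and was called lower from its interval. With the CCl4 cells set to 3 UMIs its log2 ratio was only −0.74, which is under 2-fold. Of 10 feedback and target genes of beta-catenin 1 was called higher and 0 lower, near the 11.1% of all genes called higher. The gene called higher was Ccnd1 (cyclin D1), with 70 UMIs in each library, which is 25.4 and 183 CPM and a ratio of 7.20 [5.10, 10.2]. Ctnnb1, the gene of beta-catenin itself, stood at 105 and 73.3 CPM, a ratio of 0.700 [0.457, 1.03]. The summed mesenchymal markers also differed in these cells (9.82 CPM healthy, 1652 CPM CCl4), and their part in Ccnd1 was not tested.

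**Figure D4:**
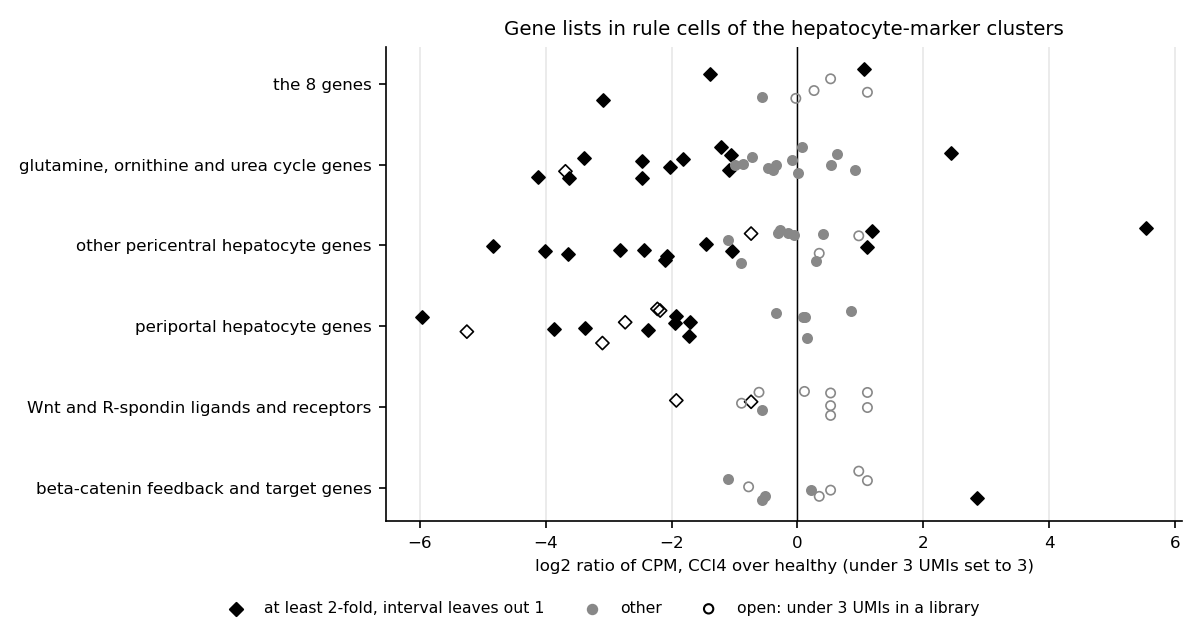
Ratio of CPM (CCl4 over healthy, log2 axis) of each gene with at least 10 UMIs in the hepatocyte-marker cells of the rule, by gene list. Diamonds are genes at least 2-fold different with an interval that leaves out 1, grey circles the others, and open symbols have under 3 UMIs in a library and are set to 3. Calls were made before this setting, so an open diamond can lie under 2-fold. Of the 18 periportal genes 13 are called lower, against 11 of 24 glutamine, ornithine and urea cycle genes, 2 of the 8 members and 12.9% of all 9341 genes tested.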

How the data were processed

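The authors deposited 1 matrix of UMI counts per library (unnormalized whole numbers per gene and barcode). Per the file headers these came from Cell Ranger 3.1.0 (healthy) and 6.0.1 (CCl4). The methods and the submitters' processing notes name the builds GRCh38 and mm10 as well as fastp and featureCounts 1.6.2, and the role of each is not given in the sources used here. The gene identifiers are those of mouse. The total was 51122846 UMIs in 6297 healthy barcodes and 97611831 in 8460 CCl4 barcodes. Cells with at least 500 UMIs, 200 genes and at most 30% mitochondrial UMIs were kept, after scrublet (in scanpy 1.11.5) had removed 277 and 487 doublets. Cells were clustered (Leiden, 10 components, resolution 1) without the 8 genes and the gene lists, and named from markers. Hepatocyte-marker clusters are those whose most numerous enriched markers were those of hepatocytes, a set added after seeing the data. CPM have exact Poisson intervals and ratios exact binomial ones. Shares at 500 UMIs are expectations under random thinning, with Clopper-Pearson intervals. Beside the 8 genes, the text names from each list the 3 genes with the most UMIs and those called, at most 6 a list by size, and chose some of these and the zonal genes compared with Glul after their values were seen. The code was tested on simulated data. Members and lists were chosen with earlier results of these data known. Values of 1 gene of the glutamine list are not reported here. Alternatives changed the hepatic rule, filters, scaling, thinning and clustering.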

Additional observations from a re-analysis of the deposited data

How the results depend on the processing

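With 1 library per condition, no value has a replicate check. Requiring at least 20 UMIs of the 5 rule genes gave ratios of 0.576 for Glul and 1.15 for Oat, with 0 members called lower and 1 higher. Requiring 1% of a cell's UMIs gave 1.06 and 0.136, with 1 member and 3 other pericentral genes higher. The hepatocyte-marker clusters, a choice made after seeing the data, gave 0.118 for Oat, with 2 members lower, 1 higher and 3 other pericentral genes higher. Under these 3 settings the Axin2 ratio was 0 in place of 3.56, with no UMI in the CCl4 cells. Equal weight for every cell gave 0.575 for Oat and 11 other pericentral genes higher, a mitochondrial limit of 10% gave 3.01 and 11, TMM scaling gave 2.67 for Oat, and no mitochondrial limit gave 5 members higher. Against these stand 0.351, 2.13, 1 member lower, 3 higher and 6 other pericentral genes higher over all cells of the rule. Over all genes, 2474 of 13522 were called lower and 819 higher with at least 20 UMIs of the rule genes. The 1% limit gave 744 and 871 of 8914, and the hepatocyte-marker clusters 1209 and 1034 of 9341. Equal weight gave 5842 and 1186 of 14764, and TMM scaling 1941 and 1720. A mitochondrial limit of 10% gave 3375 and 1425 of 14628, no limit 2908 and 1329 of 14794, and the main setting 3138 and 1286 of 14764. TMM moved the median log2 ratio of all genes from −0.28 to 0.04, and equal weight moved it to −0.89. The cause of these shifts was not tested.

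The healthy share of cells with Glul, 6.92% at 500 UMIs, was 12.8% at 1000, 23.0% at 2000, 59.3% without thinning and 3.65% under the 1% limit, and the CCl4 share, 2.42%, was 11.8% at 2000 and 16.9% without thinning. For Oat the healthy share, 2.54%, was 4.14%, 6.31%, 16.4% and 5.15% under the same settings and 9.99% in the hepatocyte-marker clusters. The CCl4 share of Oat, 2.68%, was 6.26%, 12.1% and 16.5%. Oat in healthy cells with Glul, 1.87-fold that without over all cells of the rule, was 2.36-fold with 2 Glul UMIs required, 10.7-fold in cluster c3 and 6.33-fold in the hepatocyte-marker clusters, where it was 0.914-fold in the CCl4 library against 1.43-fold over all its cells of the rule. Of the values that answer a comparison, 32 moved, 4 reversed and 63 stayed within their counting interval or within 1.5 times their count, the values by cell class among them. The named hepatocyte-like cluster held no CCl4 cell and gave no ratio. Background was not subtracted. Every class with at least 30 cells held UMIs of both Glul and Oat, so none gave a level without them. The lowest levels were 25.5 CPM of Glul in the other unnamed clusters of the CCl4 library and 7.62 CPM of Oat in healthy cholangiocyte-like cells. No paired analysis was possible because each condition has 1 library.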
